A study of Mus musculus with 16 samples.

Results

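The 3 germline regions described here are methylated on the paternal chromosome in sperm: the H19 imprinting control region (H19 ICR), the intergenic differentially methylated region of the Dlk1-Meg3 domain (IG-DMR) and the Rasgrf1 differentially methylated region (Rasgrf1 DMR). They were chosen by position in the GRCm38 mouse genome and not by any measured value, and all 3 are reported, beside 218689 tiles of 100 CpGs each that cover the genome. CpG methylation was called in 16 libraries, each from a pool of mouse oocytes of C57BL/6J X CBA/Ca F1 females, although the extraction text of the labels speaks of a blastocyst. The 4 IFC pools came from follicles cultured in vitro and carry an age label of 23 days. The 5 SO pools came from superovulated prepubertal females of 23 days, the 4 SOA pools from superovulated females of 10 weeks and the 3 IV pools from females of 10 weeks that ovulated naturally. Superovulated females received eCG followed by hCG, at a lower dose in prepubertal females, so that age and dose cannot be told apart in the comparison of SO with SOA. Culture replaced the ovary in IFC, and a pool gives the mean over many oocytes. The authors took the IFC follicles from younger prepubertal females than those of SO. They grew them with recombinant FSH and triggered maturation with recombinant hCG and epidermal growth factor. Donor age, hormones and culture thus cannot be told apart where IFC is compared with SO or with SOA.

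Genomic imprinting is the expression of a gene from only the maternal or the paternal chromosome, and it is set by DNA methylation laid down in one germline and kept after fertilization. Most imprints are set in the oocyte, where methylation follows transcription through gene bodies. The 3 regions belong to the few imprints set in the male germline, and all lie between genes. On the unmethylated maternal H19 ICR the insulator protein CTCF binds and keeps enhancers from Igf2, a fetal growth factor, while H19, a long noncoding RNA, is expressed. The unmethylated maternal IG-DMR allows expression of Meg3, a long noncoding RNA, and of the noncoding RNAs downstream of it. The methylated paternal Rasgrf1 DMR allows expression of Rasgrf1, an exchange factor that activates Ras in neurons. The zinc finger protein ZFP57 binds the hexamer TGCCGC when it is methylated and protects imprints in the early embryo.

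In GRCm38 the H19 ICR spans chr7:142580263-142582140, with 58 CpGs in 1878 bp, and ends 2.12 kb upstream of the start of H19 (ENSMUSG00000000031.16, minus strand). The IG-DMR spans chr12:109526743-109528845, with 77 CpGs in 2103 bp, and ends 12.2 kb upstream of Meg3 (ENSMUSG00000021268.17, plus strand). The Rasgrf1 DMR spans chr9:89869782-89879853, with 120 CpGs in 10072 bp, and ends 30.1 kb upstream of Rasgrf1 (ENSMUSG00000032356.12, plus strand). None of the 3 overlaps a protein-coding, lincRNA, antisense or processed-transcript gene of the GENCODE M21 annotation, so all are intergenic with respect to these types. Only genes of these types were used here, also where all genes are counted, and other types were not searched. The Rasgrf1 DMR is the poorest in CpGs, with 83.9 bp per CpG against 32.4 bp in the H19 ICR and 27.3 bp in the IG-DMR, and the richest in repeats, with 22.2% of its bases soft-masked against 2.29% and 2.71%.

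The sequences below show the motifs whose CpGs methylation would cover. The 4 stretches of the H19 ICR hold the CTCF motif, in capitals, with 20 bases on either side. They are written 5′ to 3′ on the minus strand, from chr7:142582014-142582067 (site 1), chr7:142581770-142581823 (site 2), chr7:142580744-142580797 (site 3) and chr7:142580289-142580342 (site 4). The other stretches are runs of the ZFP57 hexamer TGCCGC, in capitals, on the plus strand at chr12:109528296-109528444 in the IG-DMR and at chr9:89879598-89879789 in the Rasgrf1 DMR.
H19 CTCF site 1: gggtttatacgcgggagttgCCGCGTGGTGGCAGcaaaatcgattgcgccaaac
H19 CTCF site 2: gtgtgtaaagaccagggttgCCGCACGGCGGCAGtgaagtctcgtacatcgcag
H19 CTCF site 3: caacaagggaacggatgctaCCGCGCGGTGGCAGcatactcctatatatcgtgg
H19 CTCF site 4: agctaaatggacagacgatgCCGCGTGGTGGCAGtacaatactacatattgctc
Dlk1-Meg3 IG-DMR ZFP57 run: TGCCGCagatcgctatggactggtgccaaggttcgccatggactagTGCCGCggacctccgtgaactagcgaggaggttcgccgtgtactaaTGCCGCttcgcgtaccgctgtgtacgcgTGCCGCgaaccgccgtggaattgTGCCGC
Rasgrf1 DMR ZFP57 run: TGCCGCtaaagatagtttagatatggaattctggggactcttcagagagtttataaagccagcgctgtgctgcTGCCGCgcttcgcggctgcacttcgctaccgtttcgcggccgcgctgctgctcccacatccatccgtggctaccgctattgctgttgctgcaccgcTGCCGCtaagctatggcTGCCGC

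Depth set the precision of every value. The libraries held 5218053 to 23065411 calls, and 9 of them, all IFC libraries among them, held fewer than 10 M. A region had between 3 and 140 calls in a library, so the regions are given as counts of methylated calls. Intervals are 95% Wilson intervals and cover counting error only. The labels do not say whether pools came from separate animals or days, so exact permutation p-values measure the spread between these pools. The logistic model used further below counts each call as independent. Its p-values do not take in the spread between pools. As a check of the oocyte label, 4 transcripts with maternal imprints were measured over 1 kb on either side of their start. The mean over 16 libraries was 96.3% at Airn, 96.5% at Kcnq1ot1 and 93.7% at Peg3, while Peg10, over 15 libraries, had 81.3%, with single libraries from 33.3% (1 of 3 calls, SO pool 1) to 100%. The next lowest values at Peg10 were 61.1% in IV pool 1 (33 of 54 calls) and 66.7% in IV pool 2 (16 of 24), while IV pool 3 had 89.8%. Pool IV1 also stood apart at the start of Peg3, with 77.1%, where the other 15 libraries lay between 88.9% and 100%. At Airn and Kcnq1ot1 this pool had 98.2% and 97.4%. The authors suspected a slight contamination of IV1 with DNA of somatic cells, which was not tested here.

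The H19 ICR was almost free of methylation in every group. In the IFC pools 1 to 4, 0 of 34, 0 of 13, 2 of 44 and 0 of 29 calls were methylated. In the SO pools 1 to 5 the counts were 0 of 18, 0 of 38, 2 of 83, 1 of 70 and 0 of 30. The SOA pools 1 to 4 gave 0 of 23, 1 of 28, 0 of 4 and 1 of 85, and the IV pools 1 to 3 gave 1 of 52, 3 of 73 and 0 of 34. No library exceeded 4.55%, 9 of 16 had no methylated call, and the groups overlapped. A count of 0 is weak evidence where calls are few: 3 counts over the calls, taken as the limit of a count of 0, allow a level of up to 8.82% in IFC pool 1 and of up to 75.0% in SOA pool 3, where the Wilson intervals end at 10.2% and 49.0%. Over all libraries 11 of 658 calls were methylated, or 1.67% (interval 0.936 to 2.97%). IFC averaged 1.14% ± 2.27 (SD, n = 4), SO 0.768% ± 1.11 (SD, n = 5), SOA 1.19% ± 1.68 (SD, n = 4) and IV 2.01% ± 2.06 (SD, n = 3).

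The IG-DMR was also hypomethylated throughout, on fewer calls. The IFC pools 1 to 4 had 0 of 16, 0 of 20, 1 of 5 and 1 of 42 methylated calls. The SO pools 1 to 5 had 1 of 20, 0 of 5, 0 of 36, 1 of 50 and 2 of 20. The SOA pools 1 to 4 had 0 of 15, 2 of 22, 0 of 3 and 1 of 72, while the IV pools 1 to 3 had 3 of 54, 0 of 30 and 0 of 40. The highest value, 20.0% in IFC pool 3, rested on a single methylated call among 5 (interval 3.62 to 62.4%), and every group held libraries at 0. Pooled over libraries, 12 of 450 calls were methylated, or 2.67% (interval 1.53 to 4.60%). IFC averaged 5.60% ± 9.67 (SD, n = 4), SO 3.40% ± 4.22 (SD, n = 5), SOA 2.62% ± 4.36 (SD, n = 4) and IV 1.85% ± 3.21 (SD, n = 3). With calls pooled within groups the levels were 2.41%, 3.05%, 2.68% and 2.42% in the same order.

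The Rasgrf1 DMR carried the most methylated calls of the 3, though it was low in every library. In the IFC pools 1 to 4, 1 of 36, 0 of 26, 2 of 48 and 1 of 37 calls were methylated. The SO pools 1 to 5 gave 0 of 20, 0 of 30, 4 of 124, 8 of 92 and 2 of 83. The SOA pools 1 to 4 gave 3 of 30, 0 of 20, 2 of 42 and 11 of 140, and the IV pools 1 to 3 gave 12 of 86, 4 of 86 and 4 of 96. IV pool 1 was the highest of all, at 14.0%, and held 12 of the 20 methylated calls of its group. Over all libraries 54 of 996 calls were methylated, or 5.42% (interval 4.18 to 7.01%). IFC averaged 2.41% ± 1.74 (SD, n = 4), SO 2.87% ± 3.56 (SD, n = 5), SOA 5.65% ± 4.34 (SD, n = 4) and IV 7.59% ± 5.52 (SD, n = 3). Although the adult groups had higher means, SOA pool 2 was at 0 and IV pools 2 and 3, at 4.65% and 4.17%, lay within the range of SO.

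**Figure D1:**
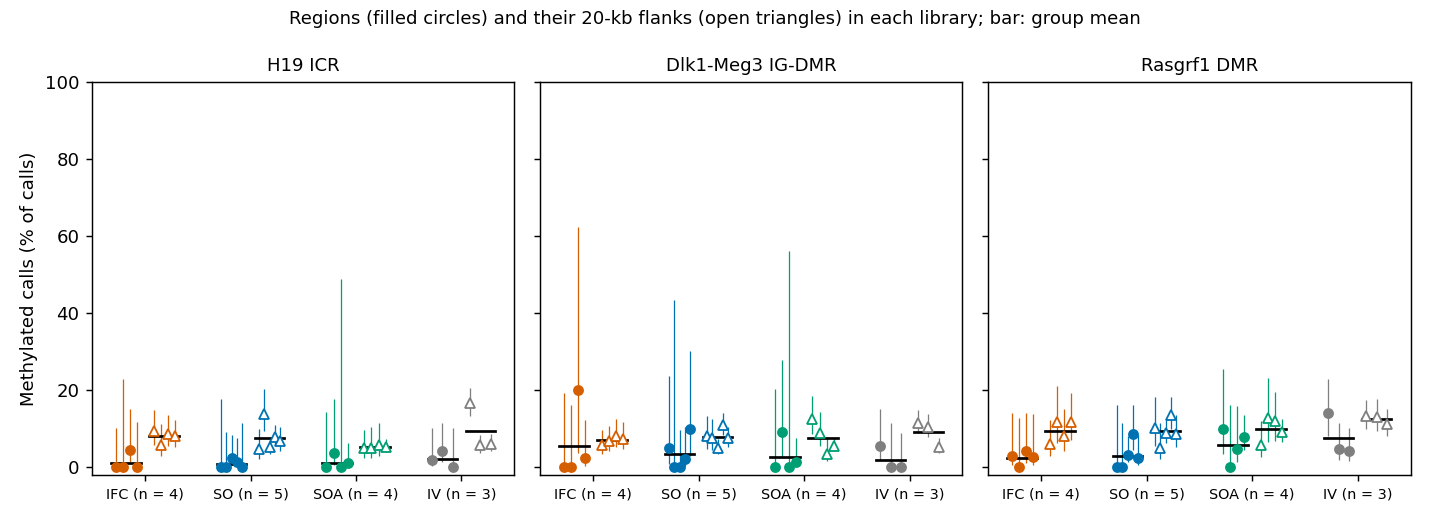
Percent of methylated calls in each library at the 3 regions (filled circles) and in their 20-kb flanks (open triangles), by group, with 95% Wilson intervals as vertical lines and group means as bars. Regions lie at or below 20.0% in every library, the H19 ICR below its flanks in 16 of 16, and the widest intervals belong to libraries with 3 to 5 calls.

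The 3 regions were low even against the mean of their 20-kb flanks, which were themselves hypomethylated. Each was compared within each library with the 20 kb on either side, and sign flips over the 16 libraries gave exact two-sided permutation p-values, adjusted over the 3 regions. The H19 ICR was below its flanks in 16 of 16 libraries, with a mean difference of -6.29 points (region 1.20%, flanks 7.49%, SD of the difference 3.80, exact p = 3.05e-05, the smallest possible, adjusted 9.16e-05). The Rasgrf1 DMR was below its flanks in 14 of 16 libraries, with a mean difference of -5.73 points (region 4.34%, flanks 10.1%, SD 4.47, exact p = 0.000366, adjusted 0.000549). The IG-DMR was below its flanks in 13 of 16 libraries, with a mean difference of -4.37 points (region 3.46%, flanks 7.83%, SD 5.69, exact p = 0.00967, adjusted 0.00967). Against the flank away from the gene alone the IG-DMR difference was -2.81 points (SD 6.10, lower in 12 of 16 libraries), and against the flank towards the gene, which reaches into Meg3, it was -5.92 points (SD 6.17, lower in 14 of 16). In the 9 libraries with fewer than 10 M calls alone, the IG-DMR difference was -3.61 points and did not pass the threshold (exact permutation p = 0.156). The other exception was a restriction to positions with at least 3 calls, with differences of -22.2 points at the H19 ICR in 5 libraries and -6.22 points at the IG-DMR in 3 (exact permutation p = 0.0625 and 0.25, the smallest possible), and of -7.26 points at the Rasgrf1 DMR in 9 libraries (exact permutation p = 0.102).

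Among the 195716 tiles with at least 5 covered positions in every library, only 0.358% had a lower mean than the H19 ICR. For the IG-DMR this share was 4.56% and for the Rasgrf1 DMR 7.84%. With 3 covered positions each in SOA pool 3, the H19 ICR and the IG-DMR did not meet this limit themselves. The flanks of the H19 ICR, the IG-DMR and the Rasgrf1 DMR stood at 20.6%, 21.7% and 27.4% of tiles. The starts of the 4 transcripts with maternal imprints stood above 98.2% (Airn), 98.8% (Kcnq1ot1), 88.4% (Peg3) and 76.0% (Peg10) of tiles. For comparison, 7584 CpG-dense regions with a mean under 20% in these libraries averaged 4.24% to 5.62% per library, with a median over libraries of 4.84%. They were picked from 8663 by that mean. They can thus include partly methylated regions and give no floor of calls that remain in unmethylated DNA. The median over libraries of each single region was 0% at the H19 ICR, 0.694% at the IG-DMR and 3.70% at the Rasgrf1 DMR. With calls pooled over libraries, the interval of the Rasgrf1 DMR (4.18 to 7.01%) contains 4.84%. The intervals of the H19 ICR (0.936 to 2.97%) and the IG-DMR (1.53 to 4.60%) end below it.

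**Figure D2:**
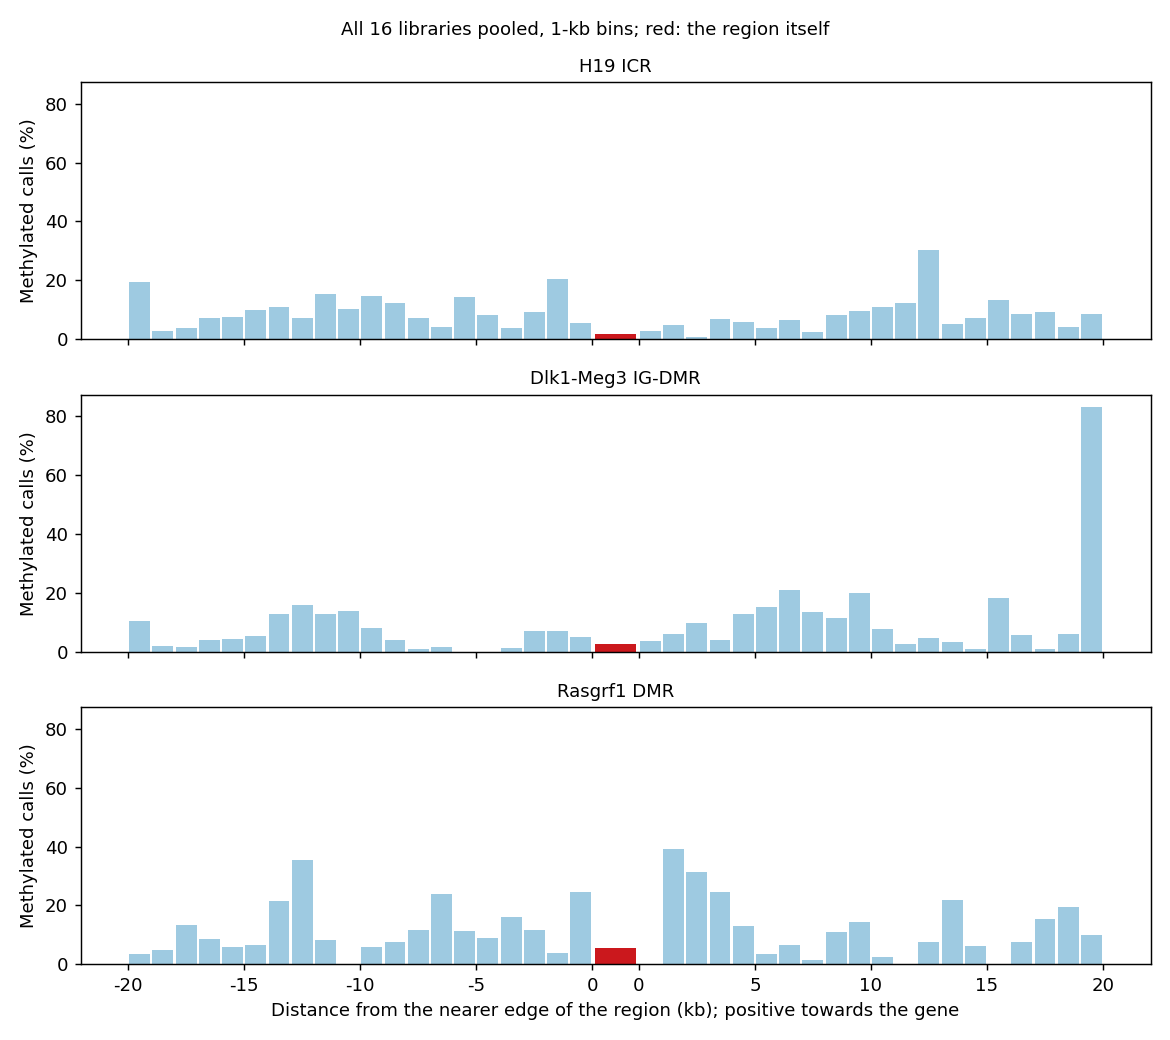
Percent of methylated calls in 1-kb bins up to 20 kb from either edge of each region, with all 16 libraries pooled and the region itself in red. The regions stand at 1.67%, 2.67% and 5.42%, with the 83.1% bin at the far right of the IG-DMR panel lying inside Meg3 and the raised bins of 39.3%, 31.3% and 24.5% just past the Rasgrf1 DMR towards the gene.

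The surroundings differed between the loci. Around the H19 ICR single 1-kb bins stayed at or below 30.4% on both sides. Away from the gene, the bins centred 7.5 to 3.5 kb from the IG-DMR had 0% to 1.74%, below the 2.67% of the region itself. Those centred 2.5 to 0.5 kb away had 5.00% to 7.14%, and those centred 13.5 to 10.5 kb away 12.9% to 15.9%. On the gene side of the IG-DMR the bin in which Meg3 begins had 4.49%, the bins after it stayed at or below 18.4%, and the last bin of the flank, inside the gene body, reached 83.1%. On the gene side of the Rasgrf1 DMR the first 1 kb had 0 of 48 methylated calls, and the next 3 bins had 39.3%, 31.3% and 24.5%, the highest values in that flank. The mean of the H19 flanks was highest in IV pool 1, at 16.7%, where the other 15 libraries had 4.72% to 13.9%.

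Methylation was not spread evenly inside the Rasgrf1 DMR. Of its calls, 17 of 162 were methylated in the farthest from the gene of 3 parts of equal length (10.5%, interval 6.66 to 16.2%), 26 of 303 in the middle part (8.58%, interval 5.92 to 12.3%) and 11 of 531 in the part nearest the gene (2.07%, interval 1.16 to 3.67%). Coverage ran the other way, with most calls in the nearest part, which holds the ZFP57 run. In the H19 ICR the same parts, from farthest to nearest, had 2.94%, 0.971% and 1.58%, and in the IG-DMR 4.08%, 3.08% and 1.802%, with overlapping intervals. These divisions are a description and were not tested.

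Single CpGs told the same regions apart. All 58 CpGs of the H19 ICR had at least 1 call, and 8 had a methylated one. In the IG-DMR 75 of 77 CpGs had a call and 11 a methylated one, each in a single library. In the Rasgrf1 DMR 115 of 120 CpGs had a call and 33 a methylated one, and 10 of these were methylated in at least 2 libraries, against 2 CpGs in the H19 ICR. The most methylated of the recurrent CpGs in the Rasgrf1 DMR had 5 of 12 methylated calls, from 3 of the 9 libraries that covered it, and lay at base 3912 of the interval. Coverage was thin, with a median of 10.5, 5 and 7 calls per CpG over all libraries together in the H19 ICR, the IG-DMR and the Rasgrf1 DMR.

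Neighbours of methylated positions were methylated more often in the flanks than in the regions. Covered positions within 100 bp of a methylated position, in the same library and on the same strand, were counted. A position was counted again for each methylated position near it. Of these counts 6 of 48 were methylated in the H19 ICR (12.5%) and 2 of 43 in the IG-DMR (4.65%). In the Rasgrf1 DMR 24 of 91 were (26.4%). Each pair of methylated neighbours entered from both sides, so the shares are not levels of methylation. The pooled levels of the regions were 1.67%, 2.67% and 5.42%. In the flanks the same share was 31.0%, 44.7% and 45.1%, at pooled levels of 7.55%, 7.69% and 10.4%. Neighbouring positions can share a read, so these shares are given without a test.

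The CTCF motif was searched as the letters in capitals at sites 1 to 4 above, with the fifth, the sixth and the ninth of them free to be any base, and the ZFP57 motif as TGCCGC, both on either strand. The H19 ICR held 4 CTCF motifs, all on the minus strand, which is also the strand of H19. Of genome windows of the same length, 0.0391% held at least 1 and 7.10e-05% held 4 or more, but the motif was searched in the form known from this region, so its count here is not independent evidence of anything particular to the H19 ICR. At sites 1 to 4, written above, 1 of 8, 2 of 20, 0 of 15 and 1 of 47 calls on the CpGs of the motif were methylated, together 4 of 90 or 4.44% (interval 1.74 to 10.9%). The CTCF motifs of the H19 ICR were thus covered mostly by unmethylated calls, with few calls at sites 1 and 3. Neither the IG-DMR nor the Rasgrf1 DMR held a match to these letters, which says only that the letters are not in these windows.

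The ZFP57 hexamer occurred 5 times in the H19 ICR, where 4 of the 5 overlapped a CTCF motif, and 7 times in each of the other regions. Windows of the same length with at least as many were rare: 0.0253% for the H19 ICR, 0.00517% for the IG-DMR and 0.146% for the Rasgrf1 DMR, while 10.1%, 11.2% and 39.5% held at least 1. These windows were not matched for CpG density, and the hexamer itself holds a CpG. It was also searched as a motif known from imprints, so its counts here are not independent evidence either. The CpG inside the hexamer was methylated in 1 of 51 calls in the H19 ICR, 1 of 42 in the IG-DMR and 2 of 58 in the Rasgrf1 DMR. In the runs printed above, 5 hexamers stood within 149 bp of the IG-DMR, where 3 of 123 calls over 21 CpGs were methylated (2.44%, interval 0.833 to 6.93%). In the Rasgrf1 DMR 4 hexamers stood within 192 bp, where 2 of 117 calls over 17 CpGs were methylated (1.71%, interval 0.470 to 6.02%). A match is a description of the sequence and not evidence of binding in oocytes.

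The study asked whether follicle culture (IFC vs SO), sexual maturity (SO vs SOA) and superovulation (SOA vs IV) alter oocyte methylation. It also compared IFC with SOA, which differ in culture, donor age and hormones together. At the 3 regions no difference between groups exceeded the spread between pools. In the 12 two-sided exact permutation tests p lay between 0.229 and 1 (adjusted 0.966 to 1), where 0.00794 is the smallest p that 5 pools against 4 can give and 0.0286 the smallest for 4 against 4 or 3. The largest difference in the Rasgrf1 DMR was that of IFC minus SOA, -3.24 points (exact permutation p = 0.229), followed by SO minus SOA with -2.79 points (exact permutation p = 0.278). Without SOA pool 2, the one adult pool at 0 on 20 calls, the difference of IFC minus SOA was -5.13 points and the groups no longer overlapped (exact permutation p = 0.0286, the smallest possible). Of 182 alternative values for differences between groups at the regions, this was the only 1 that passed the test. How many tiles or genes separate without this pool was not counted. SO serves in 2 of the comparisons and SOA in 3, so these comparisons are not independent of each other.

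The differences at the H19 ICR ranged from -0.824 points for SOA minus IV to 0.369 points for IFC minus SO. At the IG-DMR the means of IFC exceeded those of SO by 2.20 points and those of SOA by 2.98 points, and without IFC pool 3, with its 1 methylated call of 5, the differences turned to -2.61 and -1.83 points. The distance of a region from its flanks did not differ between groups either (12 tests, exact permutation p = 0.171 to 0.992), nor did the flanks themselves (12 tests, exact permutation p = 0.0571 to 0.952). At this depth and spread, differences of a few points could have been missed, and the size that these tests could detect was not tested.

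The same question was put to a logistic model of the calls fitted to all tiles and the regions together. IFC and SO could be compared at all 3 regions, with an adjusted p from this binomial model of 0.921 at the H19 ICR, 0.930 at the IG-DMR and 0.785 at the Rasgrf1 DMR, where 4.46% of all tiles were called. A call on a region also required 20 covered positions in every pool, which the Rasgrf1 DMR met between IFC and SO and no region met in the other comparisons, so the remaining p-values are a description and a missing call there shows nothing. SOA pool 3 covered 3 positions in the H19 ICR and 3 in the IG-DMR, too few for the model, so that in the other comparisons only the Rasgrf1 DMR was fitted. There the binomial model gave an adjusted p of 0.391 between SO and SOA (8.99% of tiles called), of 0.917 between SOA and IV (6.46% of tiles called) and of 0.242 between IFC and SOA (11.4% of tiles called). Each region touched 2 tiles of the genome-wide grid, and none of these 6 tiles was called in any of the 4 comparisons. The quasi-binomial version of the model, which takes the spread of each feature from its samples, left few tiles genome-wide. It called 1 between IFC and SO (15197 at an unadjusted p under 0.05), 303 between IFC and SOA (25890), 37 between SO and SOA (21049) and 7 between SOA and IV (11960).

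H19 itself was unmethylated like its control region. Its gene body had a mean of 3.63% over the 16 libraries and the 1 kb upstream of its start 1.66%. The values of the gene body ranged from 0% to 17.4%, the highest being IV pool 1, and it was not called in any comparison. No 5-kb bin from 20 kb downstream of the start of H19 to 70 kb upstream of it exceeded 18.4% as a mean over libraries. Igf2, at -88.7 to -72.6 kb from the start of H19, had a gene body mean of 8.61%, and the bin just upstream of Igf2, at -95 to -90 kb, reached 55.4%.

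Igf2 was the one gene of the H19 domain with differences that passed the logistic test. In its gene body the IFC pools had 8.94%, 7.37%, 6.03% and 9.32% methylated calls, and the SO pools 9.71%, 21.8%, 14.96%, 9.30% and 10.0%. The SOA pools had 2.91%, 7.30%, 3.17% and 5.00%, and the IV pools 10.2%, 4.26% and 7.46%. All SO pools lay above all SOA pools, and the other groups lay between and overlapped at least one of them. The mean in SO, 13.2% ± 5.35 (SD, n = 5), exceeded that in SOA, 4.60% ± 2.03 (SD, n = 4), by 8.56 points (exact permutation p = 0.0159, and 0.0714 without SOA pool 1, 3 or 4). Groups without overlap and higher in SO occurred for 2.49% of all genes in this comparison. The adjusted p of the logistic model was 2.70e-07, where 23.0% of genes were called, and 0.213 in the quasi-binomial model, which called 38 genes in all. IFC minus SO was -5.24 points, with an adjusted logistic p of 0.0420 and overlapping groups (exact permutation p = 0.0952), and that call was lost without any one of IFC pools 1, 2 and 3 and SO pools 2 and 3, or in libraries under 10 M calls alone. Restricted to positions with at least 3 calls, of which a pool had 0 to 26, the difference between SO and SOA turned to -10.1 points (exact permutation p = 0.4), and without SOA pool 1, which had 1 of 3 methylated calls at 1 such position, it was 2.47 points, with 1 SOA pool left and no test.

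Ins2, an insulin gene farther upstream, has a long annotated span of 64.7 kb. Over this span the mean was 21.3% ± 2.16 (SD, n = 4) for SOA and 26.8% ± 2.59 (SD, n = 3) for IV. These 2 groups did not overlap (exact permutation p = 0.0286, the smallest possible), which held for 2.83% of genes in that direction, and the gene was not called by the logistic model (adjusted p = 0.114). With any pool left out the exact permutation p was 0.0667 or 0.1, the smallest that the remaining pools allow.

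**Figure D3:**
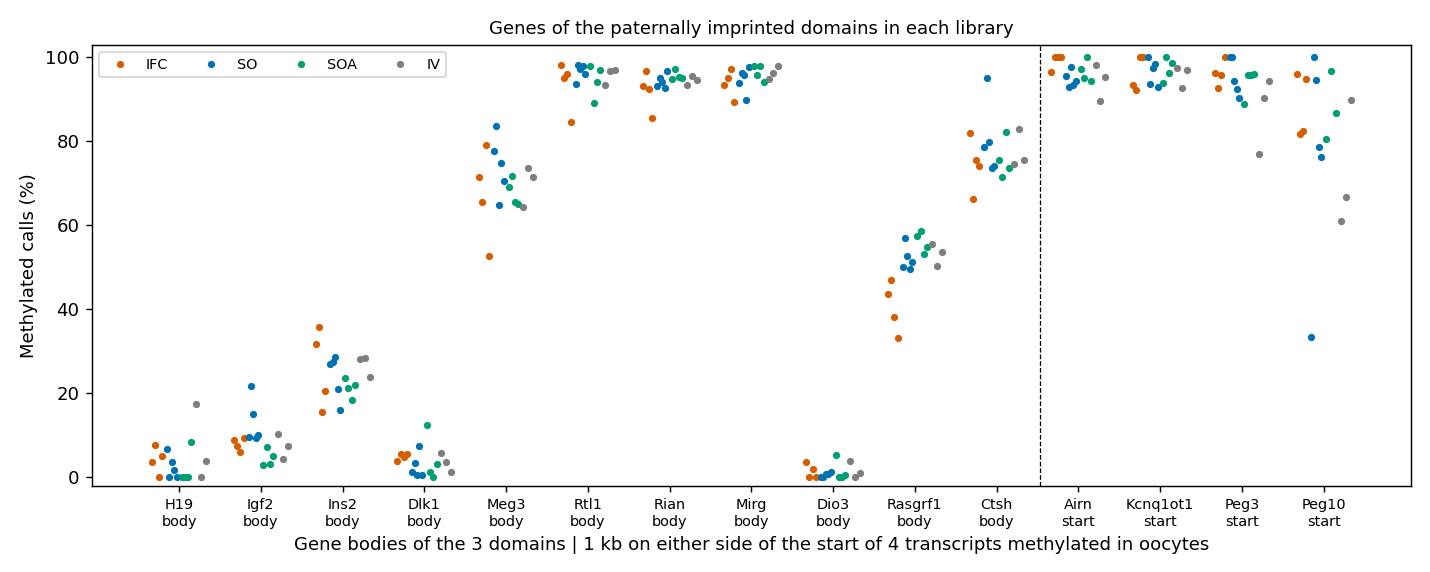
Percent of methylated calls in each library over the gene bodies of the 11 genes of the 3 domains and over the starts of 4 transcripts with maternal imprints, 1 point per library and coloured by group. H19, Dlk1 and Dio3 lie near 0, the Meg3 to Mirg genes high, and the 4 IFC points of Rasgrf1 lie below those of the other groups.

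In the Dlk1-Meg3 domain the unmethylated IG-DMR stood near a long methylated stretch. Dlk1, a transmembrane protein related to Notch ligands and expressed from the paternal chromosome, had a gene body mean of 3.80%, and Dio3, a deiodinase that inactivates thyroid hormone, had 1.21%. Rtl1, a retrotransposon-derived gene needed in the placenta, had 95.1%. Rian, host of small nucleolar RNAs, had 94.1%, and Mirg, host of microRNAs, had 95.2%. All 3 of these highly methylated genes lie downstream of Meg3.

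Meg3 held the border between these states. The 1 kb upstream of its start had a mean of 2.90%, and the first 6 kb of the gene 4.88%, from 0% to 14.9% in single libraries. From 8 kb to the end of the gene the mean was 95.3%, from 86.9% in IV pool 1 to 98.9% in IFC pool 2. In 1-kb bins with calls pooled over libraries, methylation was 0.957% at 5 to 6 kb, 27.9% at 6 to 7 kb and 90.5% at 7 to 8 kb. These borders of 6 and 8 kb were chosen after the values were seen. For IFC, SO, SOA and IV the first 6 kb averaged 4.70%, 4.37%, 4.09% and 7.04%, and the stretch from 8 kb on 96.4%, 96.1%, 95.03% and 92.8%, so the step was present in all groups.

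**Figure D4:**
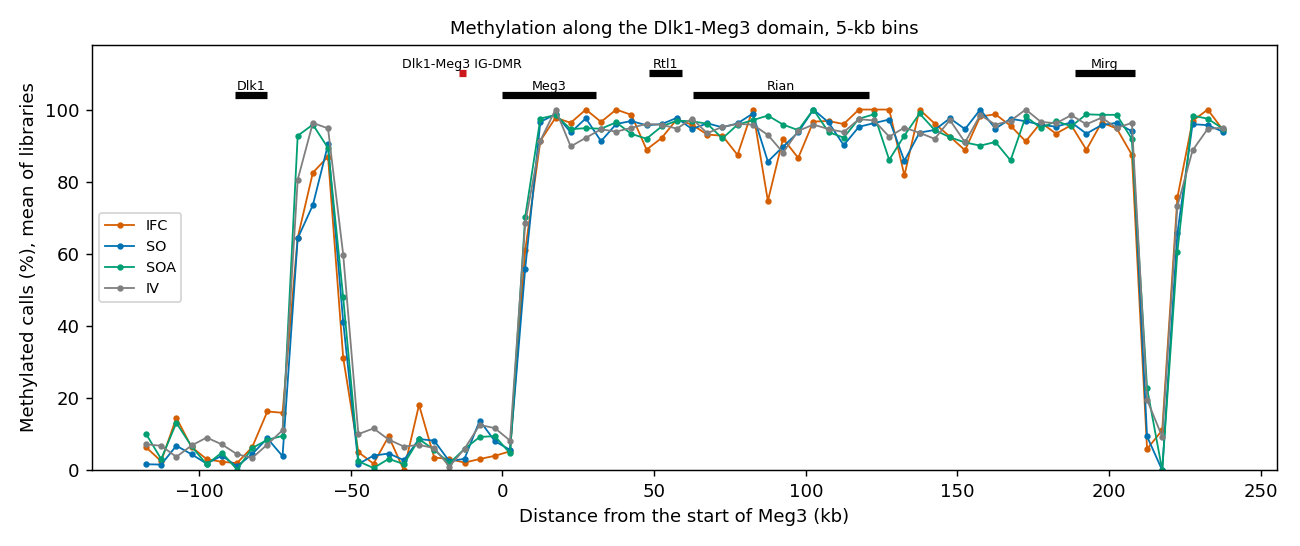
Mean percent of methylated calls of each group in 5-kb bins along the Dlk1-Meg3 domain, by distance from the start of Meg3, with genes and the IG-DMR drawn above. The IG-DMR lies in a stretch below 20%, and from 10 to 210 kb the means over all 16 libraries lie between 87.4% and 98.7%.

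Downstream of the step, methylation ran without a break for about the length of the noncoding cluster. Every 5-kb bin from 10 to 210 kb had a mean of at least 87.4%, the last of them 92.2%, and the next 2 had 13.8% and 4.51%. On the other side of the IG-DMR, between Dlk1 and the region, a shorter stretch from 70 to 50 kb upstream of Meg3 had bins of 74.5%, 84.9%, 90.1% and 43.9%. In the first of these the group means were 64.5% for IFC (39.1% to 76.9%), 64.3% for SO (44.4% to 90.8%), 92.7% for SOA (83.3% to 100%) and 80.6% for IV (76.4% to 87.0%), which were not tested. The gene body of Meg3 as a whole, which averages over the step, averaged 67.2% ± 11.2 (SD, n = 4) for IFC, 74.3% ± 7.12 (SD, n = 5) for SO, 67.9% ± 3.20 (SD, n = 4) for SOA and 69.9% ± 4.82 (SD, n = 3) for IV. Meg3 was not called in any of the 4 comparisons with all pools, though it was between IFC and SO without IFC pool 3 or SO pool 3 and between SO and SOA without SO pool 3 or SOA pool 2. Of the 6 tiles that overlap it 1 was called, between SOA and IV and lower in SOA, a call made for 5.16% of all tiles. The number of tiles called in that comparison, 12911, fell to 2487 without IV pool 1. Rian was lower in IFC than in SOA, with a difference of -3.67 points (adjusted logistic p = 0.00993, where 27.2% of genes were called), with overlapping groups (exact permutation p = 0.114), and without IFC pool 4 the call was lost.

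Rasgrf1 was the member whose gene body differed between groups, while its DMR passed none of the tests between groups with all pools. The start of Rasgrf1 was unmethylated, with a mean of 1.20% in the 1 kb upstream and 3.02% in the first 5 kb. Over the first 40 kb the 5-kb bins had means of at most 24.2%, from 40 to 50 kb they reached 55.1% and 48.4%, and from 60 to 115 kb they had 65.9% to 95.4%. The methylated body thus began far from the DMR, which ends 30.1 kb upstream of the start, and the bin 30 to 25 kb upstream, next to the DMR, had 24.0%.

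Over the whole gene body of Rasgrf1 the IFC pools 1 to 4 had 43.8%, 47.0%, 38.1% and 33.1% methylated calls. The SO pools had 50.1%, 56.96%, 52.6%, 49.6% and 51.3%, the SOA pools 57.6%, 58.6%, 53.2% and 54.7%, and the IV pools 55.5%, 50.4% and 53.7%. All 4 IFC pools lay below all 12 pools of the other groups, which overlapped each other. IFC averaged 40.5% ± 6.13 (SD, n = 4), SO 52.1% ± 2.93 (SD, n = 5), SOA 56.0% ± 2.47 (SD, n = 4) and IV 53.2% ± 2.60 (SD, n = 3).

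Rasgrf1 was lower in IFC than in SO, with a difference of -11.6 points (exact permutation p = 0.00794, the smallest possible), and groups without overlap and lower in IFC occurred for 1.38% of genes. It was lower in IFC than in SOA, with a difference of -15.5 points (exact permutation p = 0.0286, the smallest possible), where 3.16% of genes were lower in IFC without overlap. The adjusted logistic p was 5.60e-14 and 2.38e-21, in comparisons that called 17.3% and 27.2% of all genes, and the median gene was 0.453 and 0.496 points higher in IFC. In the quasi-binomial model neither call held (adjusted p = 0.323 against SO, where it called 0 genes and 2040 had an unadjusted p under 0.05, and 0.0955 against SOA). SO minus SOA was -3.88 points (adjusted logistic p = 0.0250, exact permutation p = 0.0794), and without SO pool 4, SOA pool 1 or SOA pool 2, or in libraries under 10 M calls alone, the logistic call was lost. Without SO pool 2 the difference was -5.08 points (exact permutation p = 0.0286, the smallest possible). SOA and IV differed by 2.80 points (exact permutation p = 0.257, adjusted logistic p = 0.226, where 23.1% of genes were called).

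**Figure D5:**
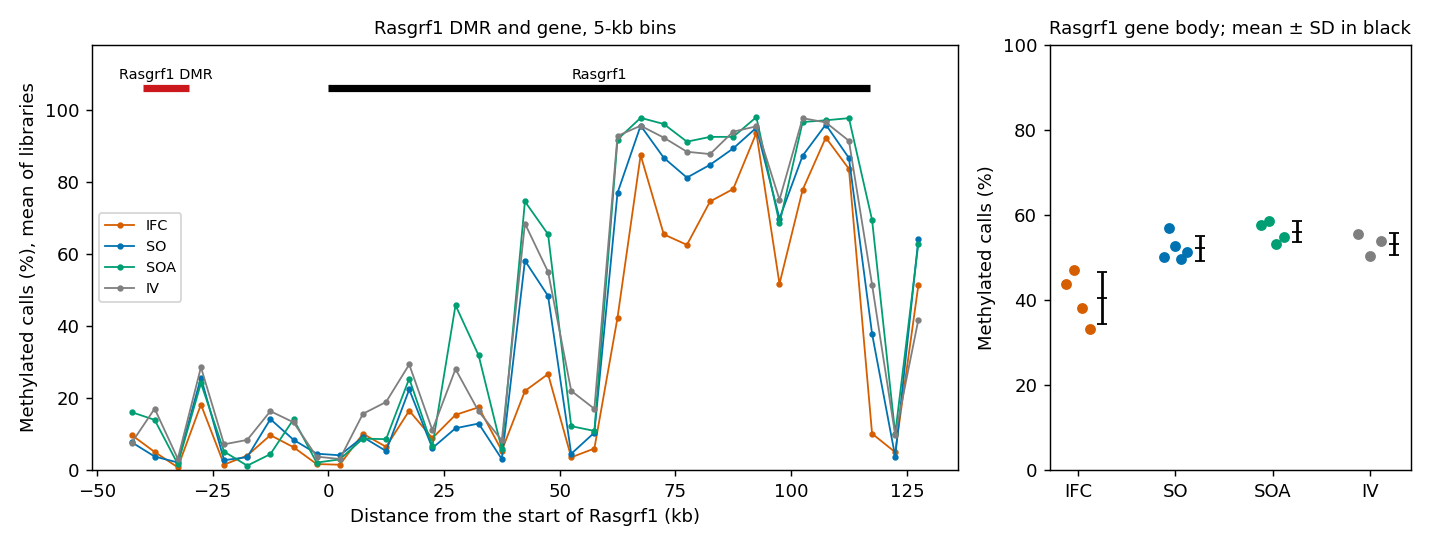
Left, mean percent of methylated calls of each group in 5-kb bins by distance from the start of Rasgrf1, with the DMR in red and the gene in black; right, the gene body in each library with group means ± SD. All group means stay below 30% at the DMR and over the first 25 kb, and IFC lies below the others in the bins from 40 to 50 kb and from 60 to 90 kb.

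Depth moved with the groups in this result. All 4 IFC libraries held fewer than 10 M calls, and among libraries below that limit IFC minus SO was -13.1 points, on 2 SO pools (exact permutation p = 0.133), and IFC minus SOA was -15.96 points, on 3 SOA pools (exact permutation p = 0.0286). The logistic model called Rasgrf1 in both comparisons among these libraries. Leaving out any single pool kept IFC minus SO between -13.8 and -9.19 points and IFC minus SOA between -17.7 and -13.1 points, and without SOA pool 1 or 2 the exact permutation p for IFC minus SOA was 0.0571. Positions with at least 3 calls numbered 2 to 17 in an IFC pool and 0 to 85 in an SO pool, of 350 to 449 and 324 to 863 covered positions, and on these alone IFC minus SO was 5.51 points (exact permutation p = 0.857) and IFC minus SOA -8.38 points (exact permutation p = 0.486). The sign against SO rested on SO pool 1, with 0 of 3 methylated calls at 1 position, without which IFC minus SO was -9.71 points (exact permutation p = 0.486).

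The called tiles of both IFC comparisons lay from 37.8 kb past the start of the gene onward, and one of them, at 46.1 to 59.5 kb, was itself low, with means of 7.06% in IFC, 17.4% in SO and 25.4% in SOA. Of the 12 tiles that overlap Rasgrf1, 6 were called between IFC and SO, all lower in IFC, where 2.37% of all tiles were called in that direction, and 3 of them differed by at least 20 points, against 0.764% of tiles. Between IFC and SOA 8 were called, all lower in IFC, against 4.47%, and 5 by at least 20 points, against 2.10%. Between SO and SOA 4 were called, all lower in SO, against 3.28%, and between SOA and IV 1, lower in SOA, against 5.16%. The tile with the largest difference between IFC and SO, from 37.8 to 46.1 kb past the start, had means of 20.6%, 45.7%, 58.9% and 54.4% for IFC, SO, SOA and IV. In the quasi-binomial model no tile of the gene was called between IFC and SO, and 2 were between IFC and SOA, at 59.5 to 68.2 kb (IFC minus SOA -34.5 points, adjusted p = 0.0486) and at 111.6 to 123.8 kb (-35.1 points, adjusted p = 0.0472). The gene ends 117.1 kb past its start, so the greater part of the tile at 111.6 to 123.8 kb lies beyond the gene. The number of all tiles that the quasi-binomial model called between IFC and SOA is given above with the regions. In the bin from 60 to 65 kb, chosen after the values were seen, the IFC pools had a mean of 42.3%, each of them below the lowest SO pool, at 57.6%, while the SO mean was 76.9%, the SOA mean 91.7% and the IV mean 92.7%.

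Ctsh, a lysosomal protease gene downstream of Rasgrf1, had 74.4%, 80.3%, 75.8% and 77.7% in IFC, SO, SOA and IV and was not called. Of the 11 genes of the 3 domains, the logistic model called 2 between IFC and SO (Igf2 and Rasgrf1, where 17.3% of all genes were called, both lower in IFC, a direction in which 6.05% were), the same 2 between SO and SOA in opposite directions (23.0% of all genes were called), 0 between SOA and IV (23.1% of all genes) and 2 between IFC and SOA (Rian and Rasgrf1, where 27.2% of all genes were called, both lower in IFC, a direction in which 8.26% were). The quasi-binomial model called 0 of 11 in every comparison, where it called 0% of all genes between IFC and SO, 0.153% between SO and SOA, 0.00784% between SOA and IV and 1.00% between IFC and SOA. An unadjusted p under 0.05 was given to 1, 2, 1 and 2 of the 11 in these comparisons, beside 8.06%, 10.9%, 5.16% and 14.1% of all genes.

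Across the 16 libraries, the gene bodies with the pattern most like that of each region were found among 6065 genes with at least 100 covered positions in every library. The H19 ICR was closest to Usp37 (Pearson's r = 0.778), Exoc6 (0.778) and A330069K06Rik (0.728). The IG-DMR was closest to Gm34184 (0.786), Arhgef37 (0.718) and Gm4258 (0.682), and the Rasgrf1 DMR to Rhbdl3 (0.878), Tnfrsf9 (0.874) and Plac1 (0.853). These are the highest of 6065 coefficients over libraries that differ in depth, are given as a description, and say nothing of shared function.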

How the data were processed

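The members and lists were chosen with earlier results of these data known. According to the submitters' processing notes, reads were trimmed with Trim Galore 0.4.4 and cutadapt 1.9.1 and aligned to GRCm38 with Bismark 0.19.0. The authors removed duplicates and deposited, for each covered CpG position, its methylation as a percent beside raw counts of methylated and of unmethylated calls. Only these counts, which carry no normalization, were used here.

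Calls were pooled within each region, flank, gene body or tile. The sample was the unit of replication in the permutation and quasi-binomial tests, while the logistic model counted each call as independent. Named genes were the members, 11 genes of the 3 domains and, for each region, the 3 most similar genes. Groups were compared by two-sided exact permutation tests. Tiles, regions and genes were compared by a likelihood-ratio test of a logistic model of the calls. At least 5 covered positions per sample were required, with Benjamini-Hochberg adjustment at 0.05 over all features tested. The fits were tried on simulated calls that had no spread between the pools of a group. That trial cannot show how the logistic p-values behave where pools vary. A call on a region required 20 covered positions in every sample. Motif windows came from GRCm38, and genes, of the types named above, from GENCODE M21.

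The alternatives were a quasi-binomial F test, at least 20 positions, positions with at least 3 or at most 10 calls, means of position percentages, reference CpGs only, soft-masked sequence left out, ends trimmed by 10%, 10-kb flanks, libraries under 10 M calls, the replicate number as a block, and each sample left out. Those for gene bodies, and the block and the limit of 10 M calls for regions against flanks, were chosen later, after seeing the data. Mitochondrial calls were 31.2% to 49.8% methylated and were not used as a measure of conversion. Calculations used Python 3.11.15, numpy 2.4.6, scipy 1.17.1, pandas 2.3.3 and matplotlib 3.10.9.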

Additional observations from a re-analysis of the deposited data

Results flagged for a closer look

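Over the regions, their flanks, and the gene bodies and promoters described, 62 groups of 4 or 5 pools were searched for a pool that stood apart, by the gap to its nearest neighbour relative to the range, and 9 were found. Chance gives about 5% of groups where values do not tie, but where all other pools of a group tie at 0% or 100%, any other value is found, so this rate does not hold for those groups and the number found is not set against it. At the H19 ICR it was IFC pool 3, with 4.55% against 0% in the other 3 IFC pools. At the IG-DMR it was IFC pool 3 with 20.0%, from 1 methylated call of 5, and SOA pool 2 with 9.09%, from 2 of 22. The part of the few calls in these values was not tested. Among gene bodies, SOA pool 4 was high at H19 (8.33%, the others at 0%), SOA pool 2 at Rian (97.3%), SOA pool 1 at Dio3 (5.36%) and SO pool 2 at Ctsh (95.2%). At the starts of transcripts with maternal imprints, IFC pool 1 was low at Airn (96.6%, the others at 100%) and SOA pool 1 low at Peg3 (88.9%). The group of 3 IV pools was too small for this search.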

How the results depend on the processing

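The regions had 3 to 140 calls per library, so small differences could have been missed. What size could be detected at this depth, spread and number of pools was not tested. The sign of most differences between groups at the regions turned under some alternative. None of the exact permutation tests passed the threshold apart from that of the Rasgrf1 DMR between IFC and SOA without SOA pool 2. Of 182 alternative values for the regions between groups, 154 stayed on the same side, 1 passed the test and 27 changed sign. Of 63 values of the regions against their flanks over all libraries, 59 kept the call and 4 lost it, and none changed sign. Of 149 values for the difference from the flanks between groups, 124 kept their sign and 25 changed it. For the gene bodies of Rasgrf1, Igf2 and Ins2, 124 of 163 kept their side, 24 lost and 3 gained significance and 12 changed sign. Unless given, the cause of a change was not tested.

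With the mean of position percentages, the differences were 0.0947 points at the H19 ICR (IFC minus SOA), -0.0300 for H19 against flanks (IFC minus SO), -0.632 for Rasgrf1 against flanks (SOA minus IV), -6.22 at Igf2 (IFC minus SO, now past the threshold) and -5.63 at Ins2 (SOA minus IV, no longer past it). With ends trimmed they were 0.0687 at the H19 ICR (IFC minus SOA), -2.86 and -1.795 at the IG-DMR (IFC minus SO, IFC minus SOA) and 1.13 at the Rasgrf1 DMR (SOA minus IV). With 10-kb flanks the differences from flanks were -0.266 for H19 (IFC minus SO) and 1.99, -1.34 and 0.664 for Rasgrf1 (SO minus SOA, SOA minus IV, IFC minus SOA). Without soft-masked sequence they were -0.0430 for H19 against flanks (IFC minus SO) and -1.10 and -4.10 at Ins2 (SO minus SOA, SOA minus IV).

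On positions with at least 3 calls, the regions stood -22.2, -6.22 and -7.26 points from their flanks in 5, 3 and 9 libraries, in the order H19, IG-DMR and Rasgrf1. The Rasgrf1 DMR gave 3.59 points (SOA minus IV), the Rasgrf1 body 5.51 (IFC minus SO) and the Igf2 body 19.3, -10.1 and 14.99 (IFC minus SO, SO minus SOA, SOA minus IV). Without the pools that had a single such position, an alternative chosen after seeing the data, the Rasgrf1 body gave -9.71 (IFC minus SO) and 3.70 (SO minus SOA) and the Igf2 body 2.47 (SO minus SOA) and 2.43 (SOA minus IV). In libraries under 10 M calls, which hold no IV pool and so give no SOA minus IV, the IG-DMR gave -0.530 (SO minus SOA) and -3.61 against flanks, the Rasgrf1 DMR 2.41 (IFC minus SO) and Ins2 -1.34 (IFC minus SO). Fewer tiles were then called, 3969, 4980 and 14764 for IFC and SO, SO and SOA, IFC and SOA, and 3448 genes for SO and SOA.

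Against 8882, 17745, 12911 and 22460 tiles and 4378, 5706, 5899 and 6759 genes called (IFC and SO, SO and SOA, SOA and IV, IFC and SOA), the quasi-binomial test called 1, 37, 7 and 303 tiles, 0, 38, 2 and 250 genes and 0 of the 11 domain genes. With at least 20 positions, where fewer tiles could be tested, 4004, 5411, 6639 and 7823 tiles were called.

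Over tiles, deviations of same-numbered samples had correlations of -0.0132 to 0.0692, with 2 of the 3 or 4 samples closest to their own number. The highest were between the pools numbered 4, at 0.0692 (IFC and SO), 0.0416 (IFC and SOA) and 0.0352 (SO and SOA). The main tests did not pair samples by number, and whether a number marks something shared was not tested. Taking the replicate number as a block also drops the pools without a partner, SO pool 5 or SOA pool 4. With this block, the IG-DMR gave -0.870 points and -1.11 against flanks (SO minus SOA), Rasgrf1 against flanks -0.307 (SOA minus IV), Ins2 -0.0877 (IFC minus SO) and the Rasgrf1 body -11.9 and -15.5 (IFC minus SO, IFC minus SOA), where the paired permutations cannot reach the threshold. The value of -0.870 was also that without SO pool 5 alone. The block left 5765 tiles for SOA and IV and 8009, 18545 and 20851 for the others, and 3, 3, 0 and 3 domain genes. The tile count for SOA and IV also lacks SOA pool 4, and leaving out that pool alone lowered it too, as given below. The gene body of Meg3 was among those called under the block and in libraries under 10 M calls, between IFC and SO and between SO and SOA.

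Leaving out each pool in turn gave the following ranges, in the order IFC minus SO, SO minus SOA, SOA minus IV and IFC minus SOA. The H19 ICR ran from -0.768 to 0.779, -0.830 to 0.375, -1.83 to 0.225 and -1.19 to 0.744 points. The IG-DMR ran from -2.61 to 4.06, -0.870 to 2.94, -1.39 to 2.62 and -1.83 to 5.13. The Rasgrf1 DMR ran from -1.17 to 1.00, -4.67 to -1.34, -3.65 to 1.25 and -5.13 to -1.79. Against flanks, H19 ran from -1.71 to 1.08, -3.90 to -1.11, -0.198 to 6.40 and -3.72 to -1.92, the IG-DMR from -1.47 to 4.76, -1.90 to 2.35, 0.493 to 4.74 and -0.837 to 5.39, and Rasgrf1 from -1.84 to 0.986, -5.04 to 0.617, -2.17 to 3.49 and -5.66 to 0.00258. Over all libraries the regions stood -6.62 to -5.72 (H19), -5.45 to -3.81 (IG-DMR) and -6.40 to -5.27 (Rasgrf1) from their flanks. Ins2 ran from -1.40 to 5.34 for IFC minus SO. Tiles called ran from 7339 to 9180, 10066 to 20311, 2487 to 24211 and 14764 to 22260, genes from 3765 to 4890, 4797 to 6170, 2984 to 7195 and 5057 to 7072, and domain genes from 1 to 4, 1 to 3, 0 to 1 and 1 to 3. Single pools moved tile counts by over 1.5 times: without SOA pool 4, 10066 (SO and SOA), 4704 (SOA and IV) and 14764 (IFC and SOA), and between SOA and IV 2487 without IV pool 1, 19931 without IV pool 2 and 24211 without IV pool 3. Without IV pool 1 the genes called between SOA and IV fell to 2984.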

Other observations

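The 1 kb upstream of Igf2 was methylated in most pools, averaging 75.7% ± 22.0 (SD, n = 4) for IFC, 75.2% ± 27.6 (SD, n = 5) for SO, 38.6% ± 25.8 (SD, n = 4) for SOA and 45.2% ± 39.4 (SD, n = 3) for IV. These means rest on 2 to 30 calls per pool. The pools at 0% had 2 calls (SOA pool 1) and 3 calls (IV pool 1), SOA pool 2 had 1 methylated call of 2, the pools at 100% had 5 to 8 calls, and the groups overlapped. The 1 kb upstream of Dlk1, Dio3, Rasgrf1 and Ctsh had means of 4.49%, 3.38%, 1.20% and 2.08%, over 13, 15, 16 and 12 libraries with calls, while that of Rtl1, Rian and Mirg had 93.5%, 95.9% and 90.5%, over 9, 13 and 14 libraries.

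Beyond the border at 210 kb downstream of the start of Meg3, methylation was 13.8% and 4.51% in 2 bins of 5 kb and returned to 68.3% at 220 to 225 kb and 95.4% at 225 to 230 kb.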
